A study of Homo sapiens with 2 samples.

Results

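NRF-1 occupancy at the promoters of 10 genes for antioxidant enzymes (SOD1, SOD2, GPX1, GPX4, PRDX3, PRDX5, TXN2, TXNRD2, CAT and GCLC) was examined, out of 19794 nuclear protein-coding genes in the annotation. The genes were taken by name, with no measured value used to choose them, although earlier results of these data were known. U251 cells, an established human glioblastoma line, had been transiently transfected with a control siRNA (siControl) or an siRNA against the transcriptional cofactor AATF (siAATF), and both groups were immunoprecipitated with the same NRF-1 antibody. The series' design text names U138 cells instead, whereas the labels of both samples name U251. There was 1 peak list per condition, of 18014 peaks in siControl and 18454 peaks in siAATF, so there were no replicates and no test between conditions, and differences from siAATF cannot be told apart from other differences between the libraries.

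NRF-1 is a homodimeric transcription factor that recognises GC-rich palindromic sites, mostly close to transcription start sites, and it is best known for nuclear genes of the respiratory chain. Respiration generates superoxide, which superoxide dismutases turn into hydrogen peroxide. Catalase, the glutathione peroxidases and the peroxiredoxins then break down the peroxide. The thioredoxin and glutathione systems supply electrons to the peroxiredoxins and the glutathione peroxidases. SOD2, PRDX3, PRDX5, TXN2 and TXNRD2 make up the mitochondrial arm of this defence, although PRDX5 is also found in peroxisomes and the cytosol. SOD1, GPX1, GPX4 and GCLC act mainly in the cytosol, with a further mitochondrial isoform of GPX4, and CAT is peroxisomal. The study measured reactive oxygen species after AATF depletion in U138 cells, whereas the labels of the peak lists name U251. It also asked how AATF acts on NRF-1 at the genes of oxidative phosphorylation. Whether NRF-1 peaks at these antioxidant genes were kept is the corresponding question here.

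NRF-1 peaks were found at the promoters of all 10 genes in both lists (100% in each, exact 95% CI 69.2 to 100, counting error only). Such intervals, here and below, treat the genes as independent draws, which genes taken by name are not. They are no test against all coding genes. A promoter reached from 1 kb before to 1 kb after any coding transcript's start. Over the whole set of coding genes, the share with such a peak was 61.1% for siControl, 60.7% for siAATF and 59.5% for both. Every promoter peak of the 10 genes overlapped its counterpart in the other list. Keeping a peak was the general rule, since 11774 of the 12095 coding genes with a promoter peak in siControl also had one in siAATF. The 10 genes also kept a peak at a stricter −log10 q of at least 5, which 51.5% of all coding genes reached in each list. CAT was nearest to that limit, with a −log10 q of 5.10 in siControl and 5.40 in siAATF.

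The strength of the peaks differed widely among these genes. Strength was read as a percentile rank among the peaks of the same list (0 is the weakest, 100 the strongest), by fold enrichment over local background or by −log10 q. For each gene the promoter peak with the highest −log10 q was taken. By fold enrichment the ranks ran from 33.7 (GPX4) to 94.98 (PRDX3) in siControl, with a median of 74.4, beside a median of 63.2 over all coding genes that had one. In siAATF they ran from 27.4 (GPX4) to 97.0 (TXN2), with a median of 71.3 beside 64.35. By −log10 q the median was 81.3 in siControl and 79.8 in siAATF, beside 65.2 and 66.2 over all coding genes. In siControl, 6 of the 10 genes lay above the median of all coding genes by fold enrichment and 8 by −log10 q. In siAATF these numbers were 7 and 7. The excess over all coding genes was smaller with the start of the canonical transcript alone. There the median by fold enrichment was 64.7 beside 62.6 in siControl. In siAATF it was 61.2 beside 63.6, below that of all coding genes. By −log10 q it was 69.2 beside 64.4 in siControl and 70.6 beside 65.4 in siAATF.

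**Figure D1:**
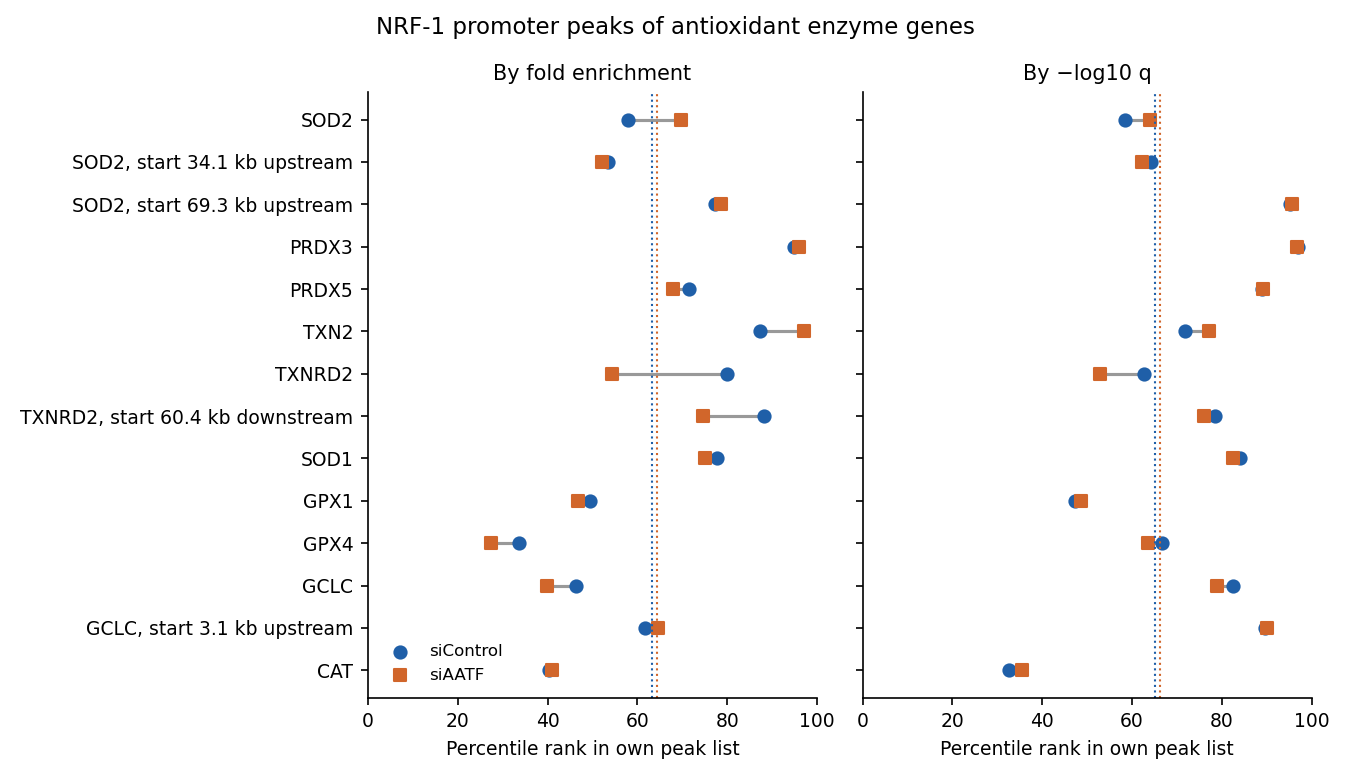
Percentile rank (x axis, 0 to 100) of each promoter peak of the 10 genes within its own peak list, by fold enrichment on the left and by −log10 q on the right. Circles are siControl, squares siAATF, grey lines join the peak with its counterpart, dotted lines are the medians of all coding genes with a promoter peak, and labels without a distance are peaks at the canonical start. PRDX3 lay at 94.98 and 96.0 by fold enrichment, whereas the canonical peak of TXNRD2 had the longest line, from 79.99 to 54.5.

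At the canonical starts, a peak was found for each of the 10 genes in both lists, beside 58.3% (siControl) and 58.0% (siAATF) of all coding genes. Each of these peaks spanned the canonical start, and 9 of 10 in each list spanned the whole of exon 1. The exception was GCLC, whose exon 1 is 606 bp long and whose peaks ended 438 bp (siControl) and 414 bp (siAATF) downstream of the start. How often peaks span the start or exon 1 was not counted over all coding genes. A further promoter peak, at another coding start, was present for 3 of the 10 genes (SOD2, TXNRD2 and GCLC) in each list, beside 9.47% of coding genes with a promoter peak in siControl. This gave 14 peaks per list. No peak lay elsewhere over the body of any of the 10 genes in either list.

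**Figure D2:**
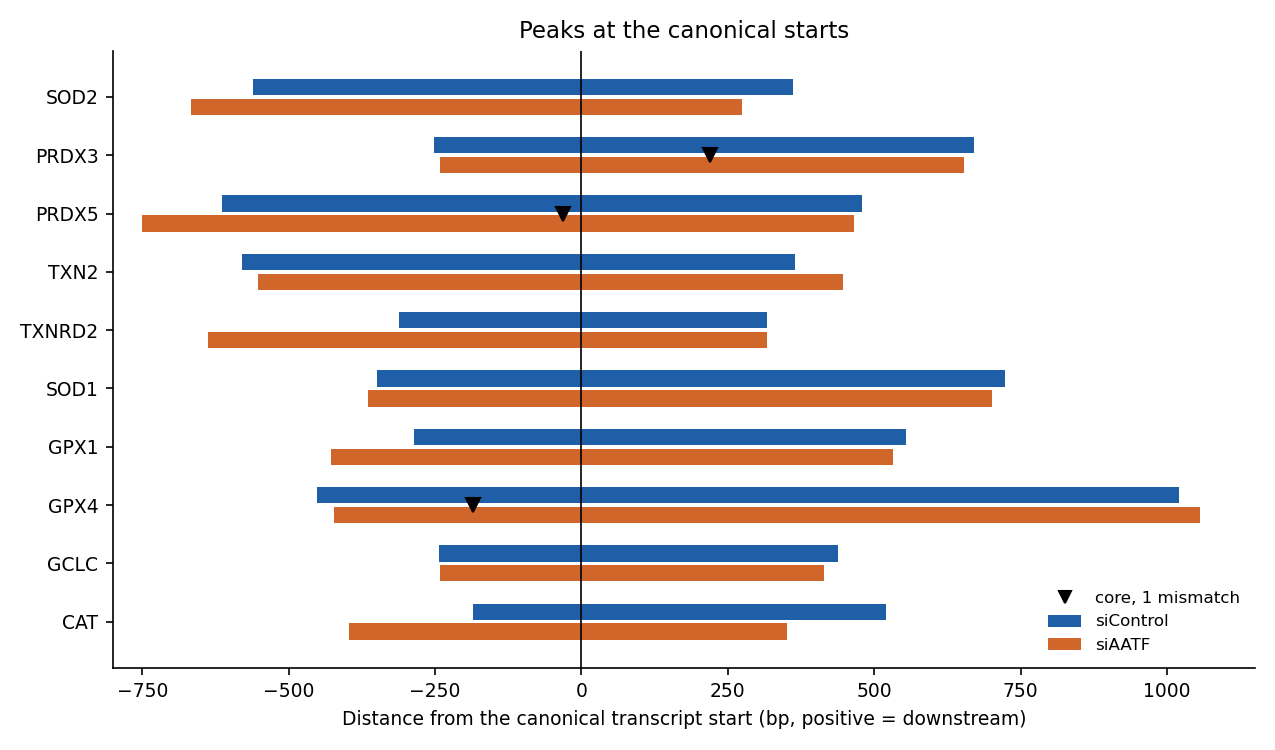
Extent of the peaks at the canonical starts, in bp from the start (x axis, positive downstream), with 1 row per gene. Upper bars are siControl, lower bars siAATF, and triangles mark an NRF-1 core with 1 mismatch. Every bar covers the start, and the siAATF bar of TXNRD2 begins at −637 bp where the siControl bar begins at −311 bp.

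PRDX3, the peroxiredoxin of the mitochondrial matrix, had the strongest peak at a canonical start among the 10 genes in siControl. The peak, on chromosome 10, spanned 120937653 to 120938575 in siControl, where its fold enrichment was 9.45 and its −log10 q 81.8. In siAATF it was at 120937670 to 120938566, and these values were 9.06 and 72.7. The ranks hardly differed between the lists, with 94.98 and 96.0 by fold enrichment and 97.0 and 96.7 by −log10 q. For comparison, the median −log10 q of all peaks was 9.89 in siControl and 9.24 in siAATF. PRDX5 encodes an atypical peroxiredoxin, and its peak, on chromosome 11, spanned 64084979 to 64086072 in siControl and 64084842 to 64086059 in siAATF. By fold enrichment it ranked 71.6 and 68.0, and by −log10 q 89.0 and 89.1. This peak also covered the start of TRMT112, a divergent gene for a methyltransferase cofactor, 562 bp away on the other strand, so it cannot be assigned to either gene.

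SOD2, the manganese superoxide dismutase of the matrix, had 3 promoter peaks on chromosome 6 in each list. The peak at the canonical start (160113911 to 160114834 in siControl, 160113999 to 160114939 in siAATF) was of middling strength, ranking 57.9 and 69.6 by fold enrichment and 58.4 and 64.0 by −log10 q. The strongest lay at a coding start annotated 69.3 kb upstream (160182464 to 160183578 in siControl), with a −log10 q of 75.7 in siControl and 69.6 in siAATF and ranks of 95.05 and 95.7 by that measure. That peak also covered the canonical start of ACAT2, an acetyl-CoA acetyltransferase gene, 484 bp from the SOD2 start. The remaining SOD2 peak, 34.1 kb upstream, covered the canonical start of WTAP, a subunit of the RNA methylation machinery, and ranked 53.4 and 52.2 by fold enrichment. The high rank of SOD2 by −log10 q thus belongs to a promoter shared with ACAT2 and not to the canonical SOD2 start.

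TXN2, the mitochondrial thioredoxin, had 1 peak on chromosome 22, at 36877322 to 36878266 in siControl and 36877240 to 36878239 in siAATF. Its fold enrichment was 8.58 in siControl and 9.28 in siAATF, and it was the highest-ranked of the 10 genes in siAATF by that measure, at 97.0. By −log10 q it ranked 71.9 and 77.1, so it was higher in siAATF on both measures. TXNRD2, the mitochondrial thioredoxin reductase that recycles TXN2, had 2 promoter peaks on chromosome 22. At the canonical start (19929024 to 19929652 in siControl, 19929024 to 19929978 in siAATF) the fold enrichment was 7.99 and 5.84, and the −log10 q was 16.3 and 10.2. The stronger TXNRD2 peak (19868603 to 19869261 in siControl, −log10 q 34.4) lay at a coding start 60.4 kb downstream, inside the gene, and no start of another gene was annotated in it. Both TXNRD2 peaks were lower in siAATF than in siControl on both measures.

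The cytosolic enzymes began with SOD1, the copper-zinc superoxide dismutase. The SOD1 peak, on chromosome 21, spanned 33031657 to 33032730 in siControl and 33031641 to 33032708 in siAATF, and ranked 77.8 and 75.1 by fold enrichment and 84.1 and 82.4 by −log10 q. It also covered the start of SOD1-DT, a divergent long non-coding RNA. GCLC, the catalytic subunit of the enzyme that makes the first step of glutathione synthesis, had 2 peaks on chromosome 6. The peak at the canonical start (53409461 to 53410142 in siControl) had a −log10 q of 43.02 and 32.1, and the peak at a start further upstream, at −3105 bp (53412543 to 53413235) had 61.8 and 56.5. The upstream peak was the stronger on both measures in both lists.

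The glutathione peroxidases and catalase had weaker peaks. GPX1, which reduces hydrogen peroxide, had a peak on chromosome 3 (49395231 to 49396072 in siControl) with a −log10 q of 8.81 and 8.72, close to the median of each list. The peak of GPX4, which reduces lipid hydroperoxides, was the widest of the 14, at 1473 bp and 1480 bp on chromosome 19 (1103542 to 1105014 in siControl). It ranked lowest by fold enrichment, at 33.7 and 27.4, but reached 66.6 and 63.5 by −log10 q. CAT, the peroxisomal catalase, had the lowest −log10 q of the 10 genes, with its peak on chromosome 11 at 34460295 to 34461002 in siControl and 34460084 to 34460832 in siAATF. It ranked 40.4 and 41.0 by fold enrichment and 32.6 and 35.6 by −log10 q.

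The sequence under the peaks was read from the hg19 genome for the NRF-1 core, the half-site GCGCA followed directly by its reverse complement TGCGC. An exact core was in the promoter peak of 0 of the 10 genes, beside 3.95% (siControl) and 4.01% (siAATF) of the coding genes with such a peak. With up to 1 mismatch it was in the strongest promoter peak of 4 of the 10 genes in each list (40%, exact 95% CI 12.2 to 73.8, counting error only), namely PRDX3, PRDX5, SOD2 and GPX4. The share over all coding genes with a promoter peak was 24.2% in siControl and 24.4% in siAATF. The 4 sites are shown because they are the matches that lie under these peaks, each on the strand of its gene, with the core in capitals and 10 bases on either side:

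PRDX3, chr10:120938086-120938115, minus strand: aaggttccatGCGCCTGCGCagaaccgccc

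PRDX5, chr11:64085551-64085580, plus strand: gtggccgctcGCGCCTGCGCagtggaggcg

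SOD2, upstream start, chr6:160182947-160182976, minus strand: atcccactgtGCGCAGGCGCaaggccggag

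GPX4, chr19:1103797-1103826, plus strand: agacacaagcGAGCATGCGCagtcgccaac

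Counted from 1 at the 5′ end of the core, the site differs from it by A5C in PRDX3 and PRDX5, by T6G in SOD2 and by C2A in GPX4. The words in PRDX3 and PRDX5 are identical, and the word in SOD2 is their reverse complement, so 3 of the 4 sites hold the same double-stranded sequence. That sequence, looked up after the sites had been seen, was in 9.56% of all promoter peaks in siControl and 9.60% in siAATF, and in 40.7% and 40.6% of the strongest 10% of promoter peaks by −log10 q. The GPX4 word was in 1.70% of promoter peaks in each list. The PRDX3 site lies in intron 1, 219 bp downstream of the start and 13 bp from the midpoint of the siControl peak. The PRDX5 site begins at −32 bp from the PRDX5 start, between PRDX5 and TRMT112. The SOD2 site is in the 5′ UTR of a SOD2 transcript that begins at the upstream start, and 115 bp from the nearest ACAT2 start. The GPX4 site begins at −186 bp from the canonical start and lies 466 bp from the midpoint of its wide siControl peak.

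A core at up to 1 mismatch went with higher −log10 q over all coding genes, as a description of these lists. The median rank by −log10 q was 91.4 for siControl promoter peaks with the core and 55.8 for those without it, and 91.8 and 57.0 in siAATF. PRDX3, PRDX5 and the upstream SOD2 peak were all in the upper range, at 89.0 or above in both lists, while GPX4 was not. SOD1 and the upstream peak of GCLC ranked above 80 in both lists with no such core in the peak. Of all coding genes with a promoter peak ranked at 80 or above, 33.0% in siControl and 34.1% in siAATF likewise had none.

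Other letters were searched in a window of 250 bases before to 50 after the canonical start, on both strands, in 19515 coding genes. The antioxidant response element, the site of the stress factor NFE2L2 (also named NRF2, which is unrelated to NRF-1), was searched as TGACNNNGC. It was in 0 of the 10 windows and in 14.04% of all windows. The ETS word CCGGAAG, which GABP also recognises, was in 3 of 10 (GPX1, PRDX5 and TXN2) and in 14.1% of all windows. The GC content of the windows had a median of 67.8% (56% to 78.3%) beside 63.7% over all coding genes. The observed-to-expected ratio of CpG had a median of 0.900 (0.577 to 1.13) beside 0.778. In PRDX5, the window with both words, CCGGAAG and the NRF-1 core did not overlap. A match or its absence describes only the window searched.

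The mitochondrial and cytosolic enzymes were then compared. By fold enrichment the mitochondrial genes ranked higher, with a median of 87.3 in siControl (71.6 to 94.98, n = 5 genes) against 55.6 (33.7 to 77.8, n = 4 genes) for the cytosolic genes. In siAATF the medians were 78.7 (68.0 to 97.0) and 55.7 (27.4 to 75.1). The groups overlapped in both lists, since SOD1 lay above PRDX5 and, narrowly in siControl, SOD2, and above PRDX5 and TXNRD2 in siAATF. A mitochondrial gene ranked higher in 18 of 20 pairs in each list. By −log10 q the medians were closer, at 89.0 against 75.3 in siControl and 89.1 against 73.0 in siAATF, and 15 of 20 pairs had the mitochondrial gene higher. With the canonical start alone, the difference by fold enrichment was 32.1 points in siControl and 26.3 points in siAATF. By −log10 q at the canonical start it was −2.66 points in siControl, the other direction, and 5.86 points in siAATF. The order of the groups therefore depended on the measure and on the start used, and with 5 and 4 genes that are not replicates no test was made. With GPX4, which also has a mitochondrial isoform, counted as mitochondrial, the difference by fold enrichment was 20.5 points in siControl (from 31.7) and 11.9 points in siAATF (from 22.9). Without GPX1, or without GPX4, the siAATF difference of 22.9 points by fold enrichment was 13.98 points.

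**Figure D3:**
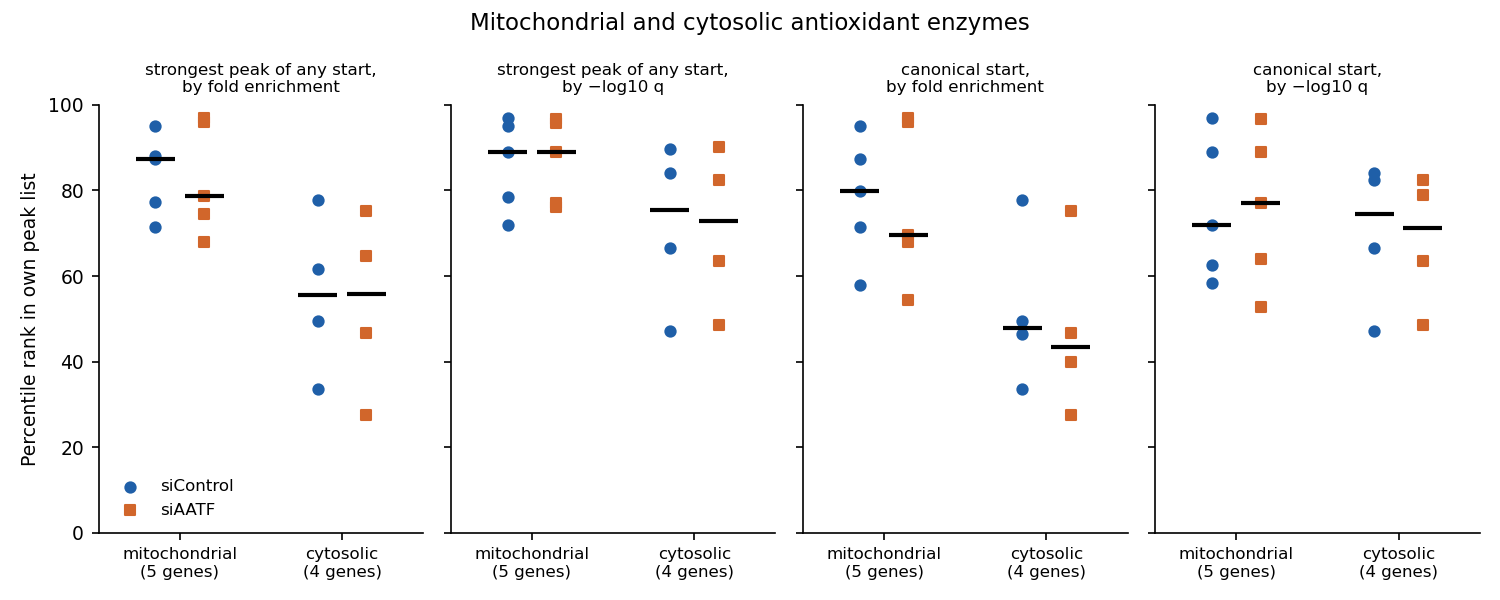
Percentile rank (y axis) of the promoter peak of each mitochondrial (5) and cytosolic (4) enzyme gene, in siControl (circles) and siAATF (squares), with black bars for medians. From left to right are the strongest peak of any start by fold enrichment and by −log10 q, then the canonical start by each measure. The siControl medians are 87.3 and 55.6 in the first panel and 71.9 and 74.5 in the last.

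The core was found in 3 of 5 mitochondrial genes and 1 of 4 cytosolic genes at the strongest peak in each list, beside 24.2% (siControl) and 24.4% (siAATF) over all coding genes with a promoter peak. At the canonical start it was in 2 of 5 and 1 of 4, beside 23.7% (siControl) and 23.8% (siAATF) of coding genes with a peak there. These numbers are given as a description.

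The ranks were compared between siControl and siAATF. By fold enrichment 5 genes were lower and 5 higher in siAATF, and the median change was −1.04 points, from −13.5 (TXNRD2) to 9.75 (TXN2). By −log10 q 4 were lower and 6 higher, and the median change was 0.244 points, from −3.04 (GPX4) to 5.26 (TXN2). Over 11774 coding genes with a promoter peak in both lists, the median change by fold enrichment was 0.185 points, and the central 90% of genes lay between −16.5 and 17.6. All 10 genes were within that range. By −log10 q the median over these coding genes was 0.464 points, and the central 90% lay between −10.5 and 12.1. The 10 genes were within this range too. Of these coding genes, 48.8% were lower in siAATF by fold enrichment and 44.4% by −log10 q. None of the 10 genes changed by more than 20 points by fold enrichment, beside 6.63% of these coding genes. The median size of the change by fold enrichment, regardless of sign, was 2.82 points for the 10 genes and 5.12 points for all. By −log10 q it was 1.53 and 2.69 points. At the canonical starts the 10 genes were close to all coding genes, with 4.95 and 5.10 points by fold enrichment and 2.98 and 2.72 points by −log10 q.

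**Figure D4:**
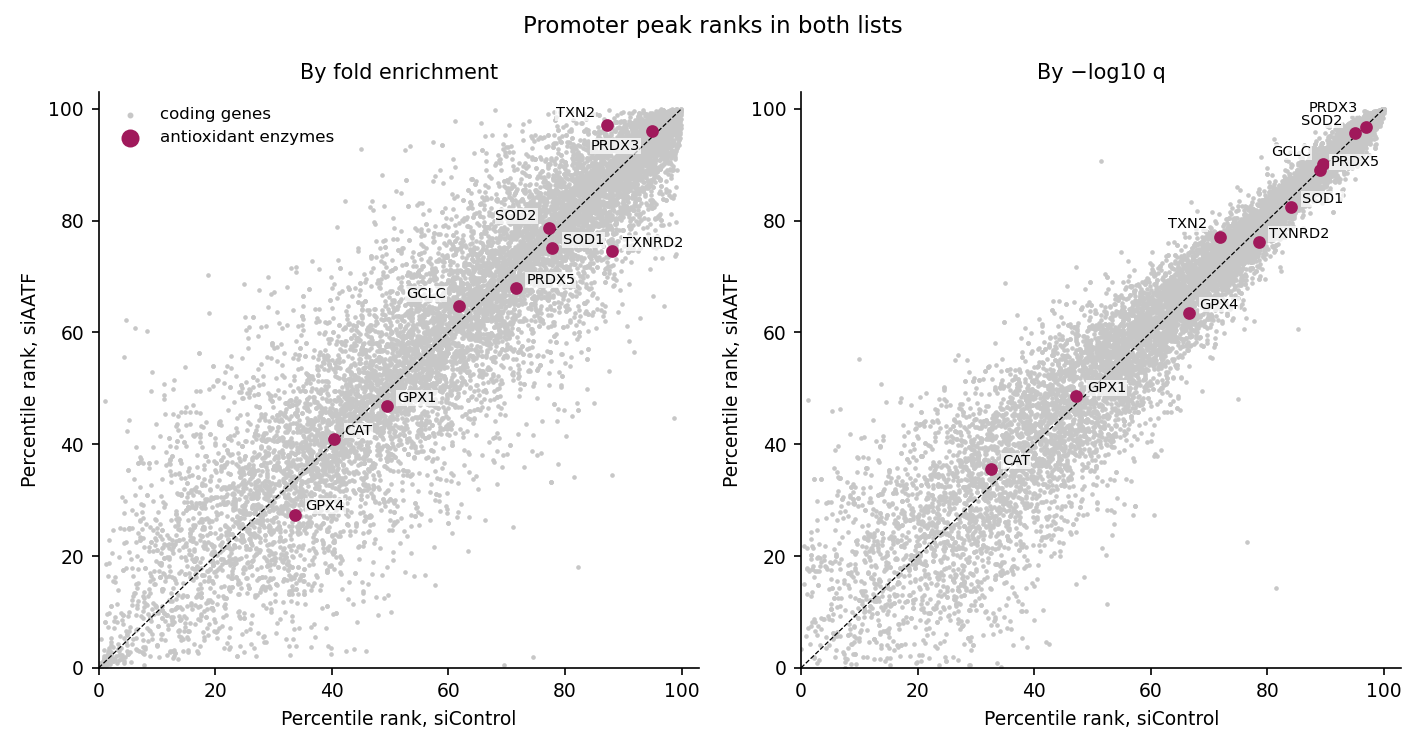
Percentile rank in siControl (x axis) and siAATF (y axis) of the strongest promoter peak of each coding gene with a peak in both lists (grey) and of the 10 antioxidant enzyme genes (labelled), by fold enrichment on the left and by −log10 q on the right. The dashed line marks equal ranks. TXN2 (87.3 and 97.0) lies above the line and TXNRD2 (88.1 and 74.6) below it on the left.

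At the canonical starts, TXNRD2 alone changed by more than 20 points. Its rank by fold enrichment was 79.99 in siControl and 54.5 in siAATF, a change of −25.5 points. Of 11239 coding genes with a peak at the canonical start in both lists, 6.64% changed by more than 20 points, and 2.96% fell by more than that. By −log10 q its change was −9.78 points, from 62.6 to 52.8. The siAATF peak was wider by 326 bp, and the mean enrichment of a peak depends on how far its edges reach. The part of this widening in the lower fold enrichment was not tested. SOD2 at its canonical start moved the other way, by 11.7 points by fold enrichment and 5.59 points by −log10 q. TXN2 and TXNRD2, which act as a pair, changed in opposite directions. Without replicates, none of these changes can be set against a spread between samples.

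The positions of the peaks were close in both lists. Over the 14 pairs of peaks, the shared bases made up 97.7% of the siControl peak at the median, and 94.0% of its siAATF counterpart. The lowest share was 76.0% for siControl (CAT) and 65.9% for siAATF (TXNRD2 at the canonical start). The midpoint moved by a median of 43.5 bp and by at most 190.5 bp (CAT). A main peak shared with the promoter of another coding gene was seen for 2 of the 10 genes, PRDX5 and SOD2, in each list, beside 24.8% (siControl) and 24.8% (siAATF) of the coding genes that had one.

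The wider pathway was described with 40 further antioxidant genes. In each list, 32 of these had a promoter peak (80%, exact 95% CI 64.4 to 90.9, counting error only), and 31 had one in both lists. Over all coding genes the shares were 61.1% in siControl, 60.7% in siAATF and 59.5% in both. The 7 genes without a peak in either list were GLRX (cytosolic glutaredoxin), GPX3 (plasma glutathione peroxidase), GPX7 and GPX8 (peroxidases of the endoplasmic reticulum), GPX2 (the intestinal form), and GPX5 and GPX6 (forms of the epididymis and olfactory tissue). SOD3, the secreted superoxide dismutase, had a weak peak in siControl alone (−log10 q 1.402, rank 5.06). SLC7A11, the cystine importer, had one in siAATF alone (−log10 q 1.47, rank 5.87). The highest ranks by fold enrichment in siControl were those of PRDX4, the peroxiredoxin of the endoplasmic reticulum (99.5), MSRB2, a mitochondrial methionine sulfoxide reductase (97.9), and TXNIP, an inhibitor of thioredoxin (97.8). The lowest were those of SOD3, PRDX2, a cytosolic peroxiredoxin (22.4), and SESN2, a sestrin (26.5). A peak was also present at both NFE2L2 (−log10 q 39.5 and 26.7) and its inhibitor KEAP1 (58.9 and 51.7).

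Of the 31 genes with a peak in both lists, 15 were lower and 16 higher in siAATF by fold enrichment, with a median change of 0.964 points. Over all coding genes with a promoter peak in both lists, 48.8% were lower and the median change was 0.185 points. For 3 of the 31 the change exceeded 20 points, beside 6.63% of all coding genes with a promoter peak in both lists. NQO1, a quinone reductase, was at 33.9 in siControl and 58.5 in siAATF, and TXNDC5, a thioredoxin-domain protein of the endoplasmic reticulum, at 69.7 and 92.3. MSRB1, a methionine sulfoxide reductase, was at 83.1 and 61.7. By −log10 q the changes of these genes were 18.9, 4.44 and −5.61 points, so none passed 20 points on that measure. Among the further genes, the 5 mitochondrial ones had a median rank of 62.8 in siControl and 62.5 in siAATF, and the 15 cytosolic ones with a peak 60.2 and 61.7. By −log10 q the mitochondrial genes were the lower, at 51.7 against 66.9 in siControl and 54.4 against 65.0 in siAATF. The gap between mitochondrial and cytosolic enzymes seen by fold enrichment was 31.7 points in siControl for the 9 enzymes and 2.63 points for the further genes.

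**Figure D5:**
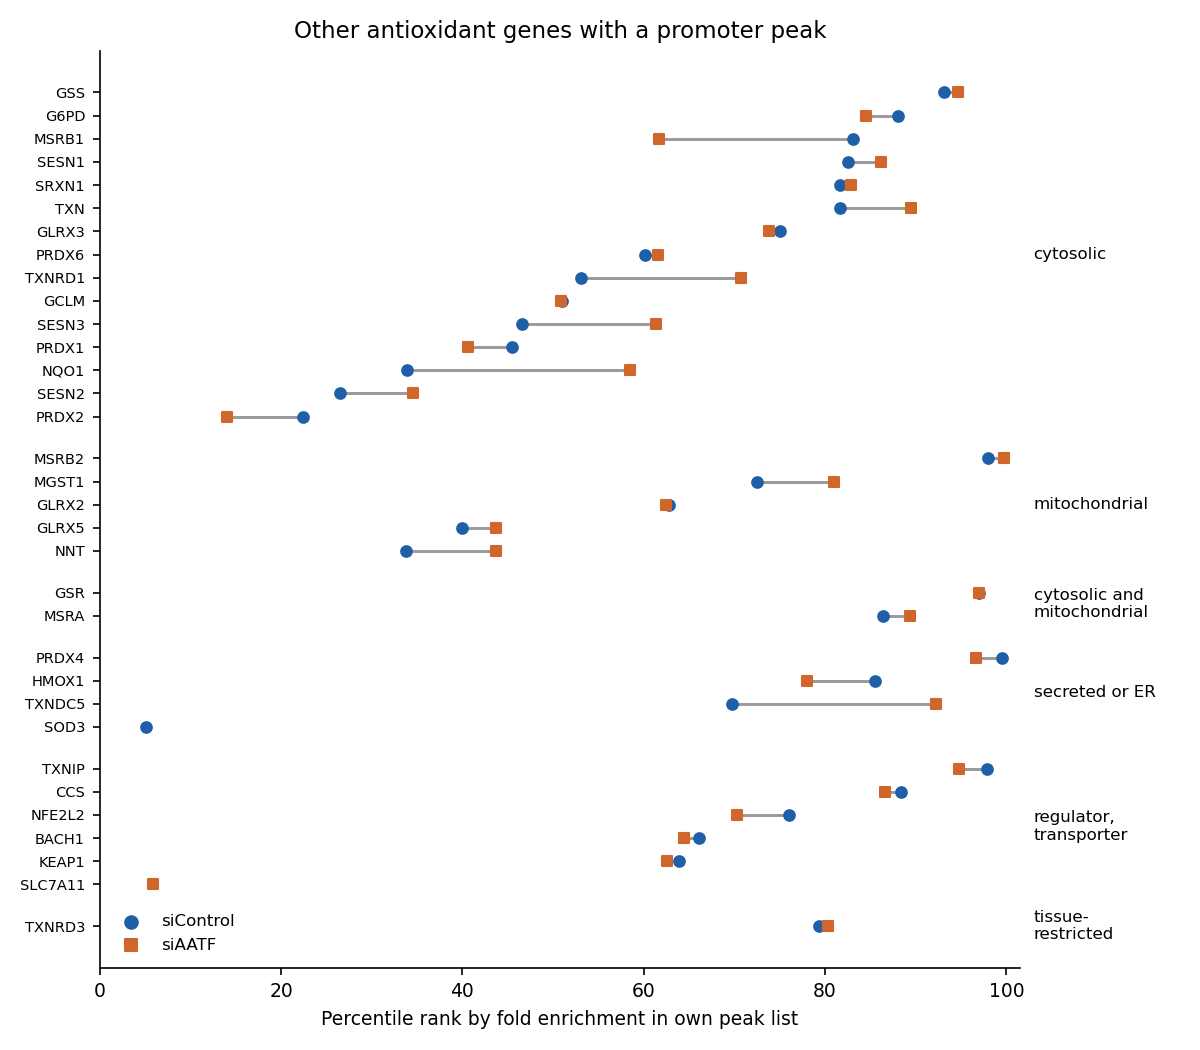
Percentile rank by fold enrichment (x axis) of the strongest promoter peak of the further antioxidant genes with a peak in at least 1 list, grouped by the compartment or kind of the product. Circles are siControl and squares siAATF, joined by grey lines. NQO1 (33.9 and 58.5), TXNDC5 (69.7 and 92.3) and MSRB1 (83.1 and 61.7) have the longest lines.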

How the data were processed

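NRF-1 was profiled by ChIPmentation, in which transposase adds the adapters to immunoprecipitated chromatin. The submitters' processing notes name Bowtie2, MACS2 and hg19, and the study's methods place MACS2 in an ATAC-seq pipeline at default settings. No input library was named. The protocol speaks of duplicates, yet each label gives replicate 1, and pooling was not stated.

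The peak positions (bp), the fold enrichment (a ratio), the −log10 p, the −log10 q and the display score were deposited by the authors. The score was not used. The depth was unknown, since the lists hold no read counts, and fold enrichments and −log10 q values of the lists were set side by side but compared as ranks within each list.

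Python 3.11.15, numpy 2.4.6, pandas 2.3.3 and scipy 1.17.1 were used with the GRCh37 genome and GENCODE release 44 lifted to it. Coordinates are 1-based. A peak belonged to a gene if it overlapped its promoter by at least 1 base. The canonical start was that of the Ensembl canonical transcript. The steps were tested on simulated data. The genes, lists and settings were chosen with earlier results of these data known. All 10 enzymes are named. From the 40 further genes, those without a peak in a list, the 3 highest and 3 lowest ranks in siControl and changes over 20 points are named. NFE2L2 and KEAP1 were added afterwards. One annotation beside a named peak is not reported here.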

Additional observations from a re-analysis of the deposited data

How the results depend on the processing

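No paired analysis was possible because each condition has a single list. Of 81 alternative values over 17 results, 59 stayed within 5 percentile points or, for numbers of genes, within 1.5 times, 20 moved and 2 changed sign. The cause was not tested. Numbers of genes with a promoter peak and of shared peaks moved under none of the alternatives run for them, and neither did 500 bp or 2 kb promoters, the peak of highest fold enrichment or reciprocal overlap of 50% move a result they were run for. Leaving out single genes, canonical starts ranked by −log10 q, and canonical starts for changes over 20 points were chosen after the data had been seen.

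With −log10 q of at least 5 the median rank of the 10 genes was 62.3 (siControl) and 57.0 (siAATF), and the mitochondrial minus cytosolic difference 46.7 and 34.3 points, ranks being taken among fewer, stronger peaks. With canonical starts the median ranks were 64.7 and 61.2, beside 62.6 and 63.6 over all coding genes with a peak there. With these starts 1 gene, TXNRD2, changed by more than 20 points. Ranked by −log10 q the median ranks were 81.3 and 79.8, the compartment difference 13.7 and 16.1 points, and the median change turned from −1.04 to 0.244 points. Canonical starts ranked by −log10 q gave compartment differences of −2.66 and 5.86 points. With GPX4 as mitochondrial the difference was 20.5 and 11.9 points, with CAT as cytosolic 37.8 and 31.9, and without PRDX5 31.6 in siAATF. Leaving out each gene gave 25.5 to 37.8 points in siControl and 13.98 to 31.9 in siAATF. In siAATF, leaving out GPX1 or GPX4 gave the 13.98, from 22.9 points. An exact core was in 0 genes in each list. The core with up to 1 mismatch, in 4 genes in each list, lay within 100 bp of the peak midpoint in 3 in siControl and 2 in siAATF. The number of genes and the single list per condition limit these values.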
